A study of Rattus norvegicus with 9 samples.

Results

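The mRNAs of the CDK inhibitors and the retinoblastoma family were followed in Sertoli cells, the somatic nurse cells of the seminiferous tubule, cultured from rats of 3 ages. Members were the probes whose gene name in the array files was Cdkn1a, Cdkn1b, Cdkn1c, Cdkn2a, Cdkn2b, Cdkn2c, Cdkn2d, Rb1, Rbl1 or Rbl2. The rule found 16 of the 41012 probes on the array, for 9 of the 10 genes (the array carries 35534 gene names), and all 16 passed the filter on dim signals. No probe carried the name Rbl1 (p107), so that pocket protein was not measured here. The cells came from testes of 5-, 12- and 60-day-old rats, kept 4 days in defined medium and then given 50 ng/ml oFSH (ovine FSH) and testosterone at 1e-07 M in pulses over 11 h. Every culture received the hormones, so the treatment did not differ between the ages, and no untreated culture stood beside them. Each age had 3 replicates, 1 on each of 3 slides, read with a single dye (Cy3) on a whole-genome rat oligonucleotide array. The labels name no animals, strain or pools behind a replicate, so p-values take in only the spread between these arrays, which may be technical.

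CDK inhibitors are small proteins that hold cells out of the division cycle. The Cip/Kip proteins p21 (Cdkn1a), p27 (Cdkn1b) and p57 (Cdkn1c) bind cyclin-CDK complexes broadly. The INK4 proteins p16 (Cdkn2a), p15 (Cdkn2b), p18 (Cdkn2c) and p19 (Cdkn2d) bind CDK4 and CDK6 alone. With CDK4 and CDK6 held, the pocket proteins Rb1, p107 and p130 (Rbl2) stay unphosphorylated, bind E2F factors, repress E2F target genes and close the way into S phase. Rat Sertoli cells divide before and shortly after birth and stop dividing before puberty. Loss of p27 in mice gives testes with extra Sertoli cells, and loss of Rb in these cells disturbs their adult function.

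The array probes of Cdkn2a and Cdkn2b are shown because these genes lie side by side. Both had their lowest mean at 12 days. At 60 days Cdkn2a stood above its 5-day mean (not called) and Cdkn2b below (called). On rat build rn4 the probes were 30565 bases apart on the minus strand of chromosome 5, Cdkn2a at chr5:108910800-108910859 and Cdkn2b at chr5:108941425-108941484. Capitals mark the longest run of letters the 60-base probes share, which is 7 bases.
Cdkn2a probe: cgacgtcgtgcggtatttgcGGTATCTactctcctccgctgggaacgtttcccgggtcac
Cdkn2b probe: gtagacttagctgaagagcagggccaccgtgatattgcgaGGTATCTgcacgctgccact
Over all 110 pairs of probes of different members the longest shared run was 8 bases. Cdkn2a gives rise to the p16 transcript and to the transcript of an unrelated protein, Arf, from a second first exon. Which of them its probe read was not determined.

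The 250 bases before the gene start are shown for those neighbours and for Cdkn2d and Rb1, which both rose with age, from RefSeq's GRCr8 assembly. Positions on the minus strand are chr5:109107957-109108206 for Cdkn2a, chr5:109134856-109135105 for Cdkn2b, chr8:28110810-28111059 for Cdkn2d and chr15:54911858-54912107 for Rb1. Capitals mark GC boxes (GGGCGG on either strand, the letters that Sp1 family factors bind) and a cyclic AMP response element (TGACGTCA).
Cdkn2a upstream: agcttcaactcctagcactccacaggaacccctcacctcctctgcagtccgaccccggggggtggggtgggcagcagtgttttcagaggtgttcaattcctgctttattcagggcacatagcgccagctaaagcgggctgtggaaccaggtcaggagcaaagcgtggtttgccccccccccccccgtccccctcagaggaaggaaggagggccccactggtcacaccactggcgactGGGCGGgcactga
Cdkn2b upstream: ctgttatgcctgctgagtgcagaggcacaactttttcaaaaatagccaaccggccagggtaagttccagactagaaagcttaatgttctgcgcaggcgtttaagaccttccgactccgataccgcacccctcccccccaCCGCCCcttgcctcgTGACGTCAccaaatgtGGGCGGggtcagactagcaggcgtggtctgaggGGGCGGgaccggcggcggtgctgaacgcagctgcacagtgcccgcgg
Cdkn2d upstream: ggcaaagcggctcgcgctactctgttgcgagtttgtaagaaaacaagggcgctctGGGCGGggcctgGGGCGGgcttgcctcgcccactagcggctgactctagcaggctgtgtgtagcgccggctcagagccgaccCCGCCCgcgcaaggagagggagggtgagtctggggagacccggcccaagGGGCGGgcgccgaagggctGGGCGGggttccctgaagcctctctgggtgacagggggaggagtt
Rb1 upstream: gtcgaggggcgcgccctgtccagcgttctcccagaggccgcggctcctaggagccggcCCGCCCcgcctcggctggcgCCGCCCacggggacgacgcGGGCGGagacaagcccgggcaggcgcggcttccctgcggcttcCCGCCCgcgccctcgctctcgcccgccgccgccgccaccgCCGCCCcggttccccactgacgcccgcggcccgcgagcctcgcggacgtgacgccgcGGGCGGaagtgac
The window held 1 GC box in Cdkn2a, 3 in Cdkn2b, 5 in Cdkn2d and 6 in Rb1. Of the 9 members with an upstream sequence in the RefSeq table, 7 held a GC box, against 30.5% of all 33469 promoters, and 1.72% of all promoters held 5 or more. Cdkn2b alone of the 9 held the cyclic AMP element, which 1.59% of promoters hold. An E2F-like run (TTTCCCGC, TTTGGCGC, TTTCGCGC or TTTGCCGC, either strand) was found in Rbl1 alone of the 9, against 1.73% of promoters. A CHR run (TTTGAA) was found in 1 member and a CCAAT run in 1, against 16.2% and 34.0% of promoters. None of the marked runs overlap. These matches are letters in a window, not sites shown to be bound.

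A level here is a probe's log2 signal against the array's 75th percentile, so 0 is the level of a probe brighter than 3 in 4 others, and differences are later minus earlier age with the standard error of the fit. A difference was called at a limma moderated test's adjusted p under 0.05 (Benjamini-Hochberg over 26599 probes). The 75th percentile lay between 149 and 435 intensity units, 49.1% to 63.0% of probes were well above background, and no member probe was saturated. Scaling on 7 spike-in RNAs in place of the percentile moved every mean difference by 1.35 downward at 12 against 5 days. It moved them by 0.90 upward at 60 against 12 days and by 0.44 downward at 60 against 5 days. The shift was uneven between slides. On slides 1, 2 and 3 the spike-ins changed against the percentile by 2.15, 0.04 and 1.84 at 12 against 5 days. The values were -0.98, -0.29 and -1.45 at 60 against 12 days and 1.17, -0.25 and 0.40 at 60 against 5 days. Every rise or fall below is therefore relative to the other genes on the array. No called member changed sign on the spike-in scale, and lost calls are named with each gene. With normexp background correction (offset 50), possible on slides 1 and 3 only, limma called none of the 16 in any comparison. At an unadjusted p under 0.05 there were 1 to 5, and at most 195 of all 26599 probes were called. The main method without slide 2 called 1, 1 and 5 of the 16 in the 3 comparisons, and 3.47%, 11.4% and 20.7% of all probes. The parts of fewer arrays, the offset and the correction in the lost calls were not tested. Each slide held the ages in the same positions, so the effects of age and of position cannot be told apart, and slide 1 was read on another scanner model than slides 2 and 3.

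The cultures carried Sertoli cell mRNAs at every age, and mRNAs of other testis cells moved with age as well. Of 18 Sertoli cell markers 11 rose from 5 to 12 days and 12 from 5 to 60 days, with a summed level of 104 to 266, 370 to 411 and 438 to 511 times the 75th percentile at 5, 12 and 60 days. The brightest were Inha, Clu and Ctsl. On the spike-in scale 0 of the 18 were called higher at 12 than at 5 days and 9 at 60 than at 5 days. Spermatocyte markers (brightest Tex101, Tex15 and Hspa2) rose in 15 of 16 from 5 to 60 days, summed level 2.49 to 2.92, 16.5 to 20.7 and 102 to 190, and 11 of the 16 were not well above background on any 5-day array. Spermatid markers (Prm1, Tnp1 and Odf2) rose in 14 of 15 from 12 to 60 days, summed level 3.93 to 6.25, 4.77 to 6.66 and 30.2 to 61.8, with 12 and 10 of the 15 below background at 5 and 12 days. Of 5 spermatogonia markers (Gfra1, Taf7l and Uchl1 the brightest) 3 rose from 5 to 60 days and 1 fell, with a summed level of 8.52 to 11.6, 11.3 to 16.9 and 58.3 to 81.1. Between 5 and 12 days 4 of 8 Leydig cell markers fell and 1 rose, with Hsd11b1, Star and Hsd3b1 the brightest and a summed level of 19.5 to 32.2, then 5.76 to 9.66, then 11.5 to 15.8. Macrophage markers (Cd14, Lyz2 and Cd68) fell in 7 of 11 over the same step, from 6.85 to 11.8 down to 2.38 to 2.77, and stood at 3.39 to 3.97 at 60 days. Of 14 peritubular and fibroblast markers (Tpm2, Col1a2 and Tagln the brightest) 10 fell from 5 to 60 days, from 883 to 1592 through 554 to 817 down to 115 to 498. Of 7 endothelial markers (Kdr, Ramp2 and Esam the brightest) 5 fell and 1 rose over that span. Their summed level went from 5.71 to 9.17 through 8.67 to 15 down to 1.20 to 3.61. Over all probes 5.87% rose and 5.95% fell from 5 to 12 days. The shares were 11.9% and 12.3% from 12 to 60 days and 17.2% each way from 5 to 60 days. In these bulk samples fewer cells of a type and less RNA per cell cannot be told apart.

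From 5 to 12 days 2 of the 16 member probes rose (both of Cdkn1a) and 5 fell (4 of Cdkn1c and that of Cdkn2b), where 11.8% of all probes were called, 5.87% higher and 5.95% lower. From 12 to 60 days 2 rose (Cdkn2a and Cdkn2b) and 1 fell (Cdkn1b), where 24.2% of all probes were called. With the slide as a block 5 of the 16 were called at that step, and 33.3% of all probes. Between 5 and 60 days 5 rose (Cdkn1a, Cdkn2d and Rb1) and 6 fell (Cdkn1b, Cdkn1c and Cdkn2b), where 34.4% were called. Over the 3 ages together 12 of the 16 probes, of 7 genes, differed by the F-test, where 35.4% of all probes did. The arrays of the compared ages did not overlap for 9, 6 and 12 of the 16 probes, against 28.2%, 39.7% and 46.9% of all probes. The median member difference was -0.14, 0.22 and -0.73 in the 3 comparisons, beside 0.06, -0.14 and -0.05 over all probes. The family thus had no common direction, and each step had members on both sides.

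**Figure D1:**
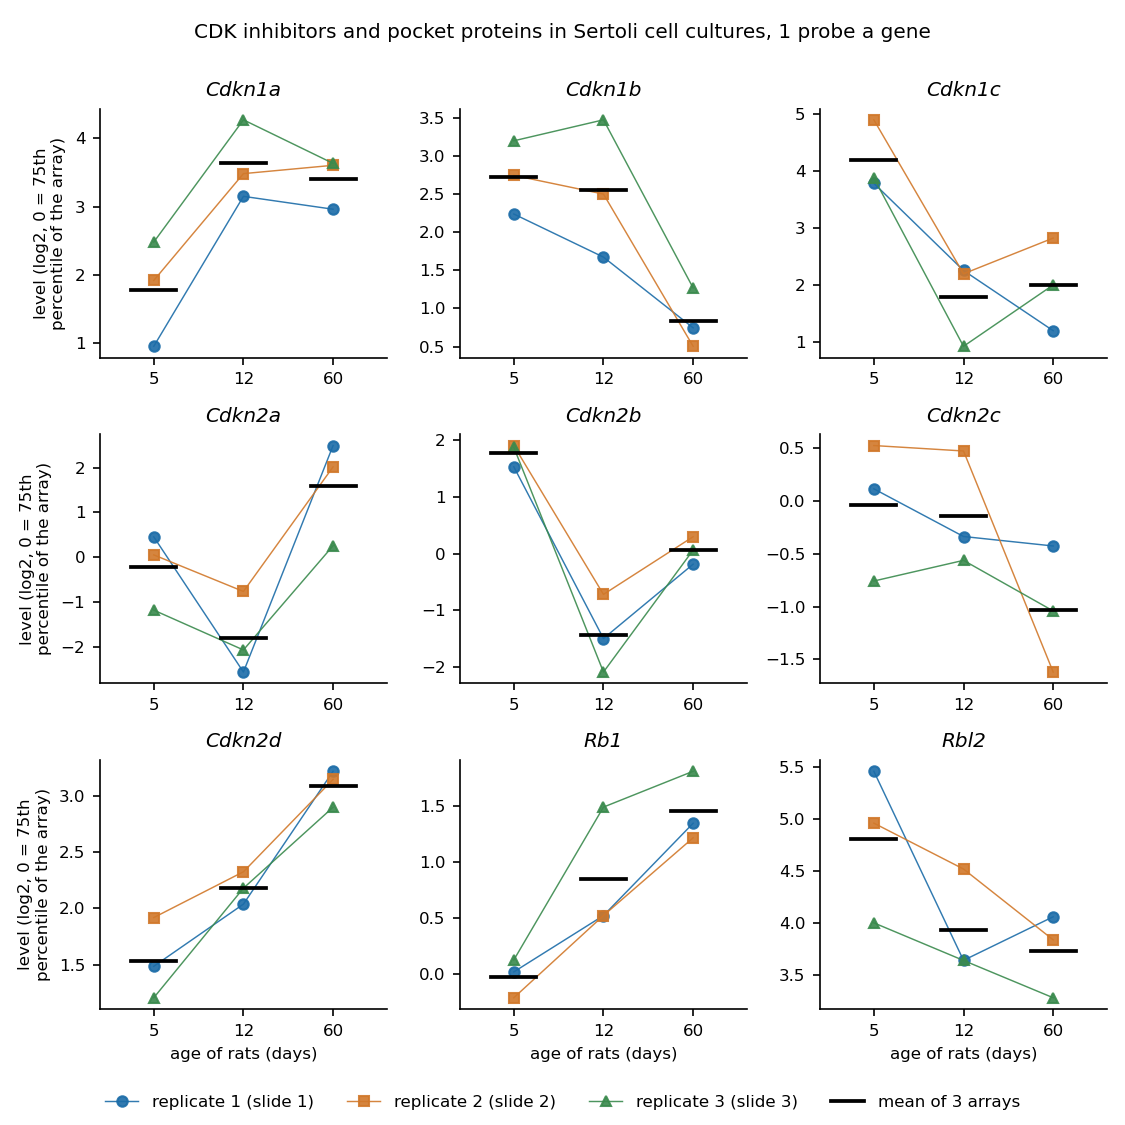
Level of 9 member genes on the 9 arrays, 1 panel a gene (its brightest probe), against the age of the rats; points joined by lines share a replicate number and slide, black bars are means of 3 arrays, and each panel has its own log2 axis. Cdkn2b is lowest at 12 days on every slide, Cdkn2d and Rb1 are highest at 60 days on every slide, and the 60-day arrays of Cdkn1b lie below all others.

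Cdkn1a (p21, a target of p53 that also marks cells leaving the cycle) rose after 5 days and was called higher at both later ages. On its brighter probe (chr20:7386596-7386655, rn4), printed in 10 spots per array, the levels were 0.96, 1.92 and 2.48 at 5 days, 3.15, 3.48 and 4.27 at 12 days and 2.96, 3.61 and 3.63 at 60 days. The 5-day arrays lay below all the others, while 12 and 60 days overlapped. The rise from 5 to 12 days was 1.85 ± 0.46, or 3.60-fold (n = 3 per age, adjusted p = 0.0244), and that from 5 to 60 days 1.61 ± 0.46, or 3.06-fold (adjusted p = 0.0188). Both fell short on the spike-in scale, at 0.50 (adjusted p = 0.609) and 1.17 (adjusted p = 0.352). The first was no longer called without any one slide, the 5-day array 1 or 2 or the 12-day array 2 or 3 (adjusted p up to 0.170), and the second without slide 1 or 2, the 5-day array 1 or the 60-day array 2 or 3 (adjusted p up to 0.144).

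The second Cdkn1a probe (chr20:7385506-7385565) was dim, well above background on 1 of the 3 arrays at 5 days and on all 6 later ones. Its levels were -6.37, -4.73 and -3.24 at 5 days, -1.57, -2.20 and -1.33 at 12 days and -3.05, -2.35 and -2.52 at 60 days. Its rises were 3.08 ± 0.65 from 5 to 12 days (adjusted p = 0.0110) and 2.14 ± 0.65 from 5 to 60 days (adjusted p = 0.0261). Both probes thus gave the same order of ages, and the spike-in scale also took this probe's calls away, at 1.73 (adjusted p = 0.118) and 1.69 (adjusted p = 0.137). The first call also needed slides 1 and 2 (adjusted p up to 0.0946 without one of them), and the second slides 1 and 2 and 5-day and 60-day arrays (up to 0.165).

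Cdkn1b (p27) fell at 60 days on its brighter probe (chr4:171846350-171846409), also printed in 10 spots. Its levels were 2.24, 2.75 and 3.20 at 5 days, 1.67, 2.50 and 3.48 at 12 days and 0.75, 0.50 and 1.27 at 60 days. Every 60-day array lay below every younger one. From 12 to 60 days the level fell by 1.71 on the log2 scale ± 0.48, a 3.28-fold drop (adjusted p = 0.0234), and from 5 to 60 days it fell by 1.89 ± 0.48, a 3.71-fold drop (adjusted p = 0.010). The step from 5 to 12 days was -0.18 ± 0.48 (adjusted p = 0.893). On the spike-in scale the fall from 5 days was still called (-2.33, adjusted p = 0.0235) and that from 12 days was not (-0.81, adjusted p = 0.569). The fall from 12 days was also lost without slide 2 or 3, the 12-day array 2 or 3 or the 60-day array 1 or 2 (adjusted p up to 0.197), and that from 5 days without slide 2 (0.125).

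The other Cdkn1b probe lies 855 bases away (chr4:171845435-171845494) and gave a different picture. Its levels were -0.51, 0.48 and -1.61 at 5 days, 1.42, 0.74 and -1.06 at 12 days and 0.02, -0.26 and -2.83 at 60 days. The ages overlapped, and slide 3 was the lowest at every age. The 60 against 12 days difference of -1.39 ± 0.85 was not called (adjusted p = 0.277) without the slide as a block and was called with it (adjusted p = 0.0227), being negative on all 3 slides. The F-test of this probe likewise passed with the block (adjusted p = 0.0382) and not without it (0.420). Between 5 and 60 days this probe differed by -0.48 ± 0.85 (adjusted p = 0.707), so the fall from the youngest age rests on the brighter probe alone. Over the 9 arrays, which share slides and ages, the probes correlated at r = -0.07. Spots of the brighter probe varied by an SD of 0.0352 to 0.104 (log2) within an array, far less than the arrays of 1 age.

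Cdkn1c (p57, an imprinted inhibitor expressed from the maternal allele) fell after 5 days on all 4 of its probes, which span 1564 bases of chromosome 1 (minus strand). On the brightest (chr1:203835188-203835213, an aligned stretch shorter than the probe) the levels were 3.78, 4.90 and 3.88 at 5 days, 2.25, 2.19 and 0.92 at 12 days and 1.19, 2.82 and 2.00 at 60 days. The 5-day arrays were the highest on every probe, with no overlap, and 12 and 60 days were mixed. From 5 to 12 days this probe fell by 2.40 ± 0.53, or 5.27-fold (adjusted p = 0.0135), and from 5 to 60 days by 2.18 ± 0.53, or 4.54-fold (adjusted p = 0.0080). The second probe (chr1:203835341-203835400), with 3.75, 3.12 and 3.55, then 0.21, 0.18 and 1.26, then -1.44, 0.51 and 1.44, fell by 2.92 ± 0.64 to 12 days and by 3.30 ± 0.64 to 60 days (adjusted p = 0.0129 and 0.0021).

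The remaining Cdkn1c probes (chr1:203836064-203836123 and chr1:203836692-203836751) fell by 2.12 ± 0.60 and 2.22 ± 0.62 to 12 days (adjusted p = 0.0429 and 0.0408) and by 1.90 ± 0.60 and 1.91 ± 0.62 to 60 days (adjusted p = 0.0299 and 0.0339). All 8 of these falls were called on the spike-in scale, at -2.34 to -4.27. The calls on these less bright probes were near the threshold: quantile normalisation ended the 12-day call of the third (adjusted p = 0.0509), leaving dim probes in ended both 12-day calls (0.0585 and 0.0549), and so did leaving out slide 2 or 3 and most single arrays (up to 0.259). Their 60-day calls were likewise lost without slide 2 or 3 and some single arrays (up to 0.109), and that of the dimmest probe also without slide 1. For the brightest probe the 12-day call was lost without slide 2 or 3 or the 5-day array 2 (up to 0.101) and the 60-day call without slide 1 (0.0580). For the second probe the 12-day call was lost without slide 2 or the 5-day or 12-day array of slide 1 (up to 0.131), and the 60-day call was kept throughout. Between 12 and 60 days no Cdkn1c probe was called, and on all 4 the difference was negative on slide 1 and positive on slides 2 and 3. Pairs of these probes correlated at r = 0.78 to 0.99 over the 9 arrays.

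**Figure D2:**
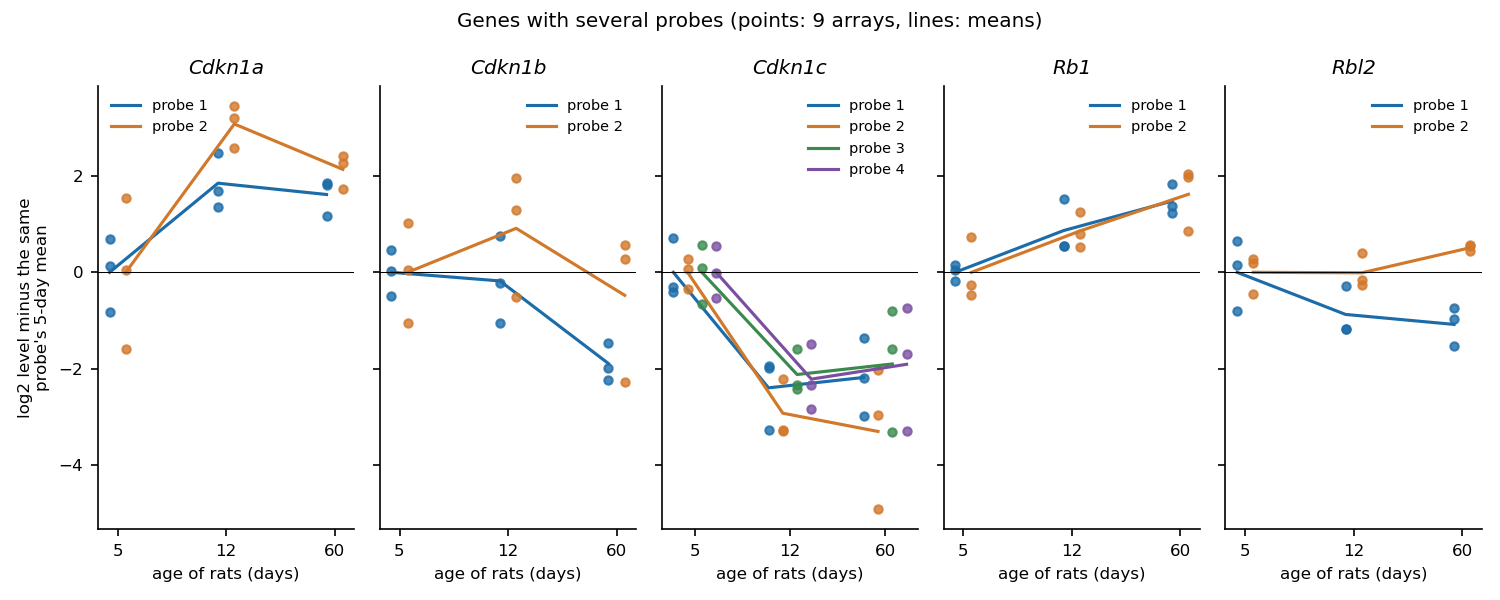
Genes with several probes: log2 level of each probe minus its own 5-day mean (vertical axis) against the age of the rats, with a point for each of the 9 arrays and lines through the means. The 4 Cdkn1c probes drop together after 5 days and both Cdkn1a probes rise, while the probes of Cdkn1b and of Rbl2 part from each other.

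Cdkn2b (p15, an inhibitor best known as a target of TGF-beta signalling) had the largest F of the 16 probes, 34.3 (adjusted p = 0.000254). Its levels were 1.53, 1.90 and 1.87 at 5 days, -1.50, -0.72 and -2.09 at 12 days and -0.19, 0.30 and 0.06 at 60 days. No array of one age overlapped another, with a trough at 12 days. The fall to 12 days was 3.20 ± 0.39 on the log2 scale, a 9.19-fold drop (adjusted p = 0.000448), called on the percentile, median, quantile and spike-in scales and with each slide or array left out. From 12 to 60 days it rose by 1.49 ± 0.39, or 2.81-fold (adjusted p = 0.0165; 2.40 and 0.0251 on the spike-in scale). At 60 days it remained 3.27-fold below 5 days (-1.71 ± 0.39, adjusted p = 0.0054). The rise was lost without any one slide, the 12-day array 1 or 3 or the 60-day array 2 (adjusted p up to 0.147), and the 60 against 5 days call without slide 1 (0.0524).

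Cdkn2a (p16 and Arf, whose mRNAs build up in ageing cells and are kept low by polycomb proteins) was lowest at 12 days and highest at 60 days. Its levels were 0.46, 0.05 and -1.18 at 5 days, -2.56, -0.76 and -2.07 at 12 days and 2.49, 2.02 and 0.26 at 60 days. The 60-day arrays lay above every 12-day array, and the 5-day arrays overlapped both. From 12 to 60 days it rose by 3.39 ± 0.67 (adjusted p = 0.0038), by 5.06, 2.78 and 2.33 on slides 1, 2 and 3. The call held on the spike-in scale (4.29) and was lost without slide 1 (adjusted p = 0.0715). The fall from 5 to 12 days, -1.58 ± 0.67, was not called (adjusted p = 0.181) and was called on the spike-in scale (-2.92, adjusted p = 0.0052). The 60 against 5 days difference of 1.81 ± 0.67 missed the threshold (adjusted p = 0.0586) and passed it with the slide as a block (0.0158).

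Both neighbours on chromosome 5 thus had their lowest mean at 12 days, and at 60 days Cdkn2a stood above its 5-day mean and Cdkn2b below. Falls of Cdkn1c and Cdkn2b from 5 to 12 days went along with falls of the Leydig cell and macrophage markers given above. At that step 4 of 14 peritubular and fibroblast markers and 2 of 7 endothelial markers fell too. The rise of Cdkn2a from 12 to 60 days went along with rises of the spermatocyte and spermatid markers. Spermatocyte markers, 8 of 16, had also risen from 5 to 12 days, where Cdkn2a did not rise (-1.58 ± 0.67). The part of those cells in the differences was not tested.

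Cdkn2d (p19, an INK4 protein abundant in testis) rose from 5 to 60 days. Its levels were 1.49, 1.92 and 1.21 at 5 days, 2.04, 2.33 and 2.18 at 12 days and 3.22, 3.15 and 2.90 at 60 days. The 3 ages did not overlap, and every slide gave the same order. The rise from 5 to 60 days was 1.55 ± 0.32, or 2.93-fold (adjusted p = 0.0029), kept with each slide or array left out and lost on the spike-in scale (1.11, adjusted p = 0.385). The steps were 0.64 ± 0.32 (adjusted p = 0.254) and 0.91 ± 0.32 (adjusted p = 0.0613). The second passed with the slide as a block (adjusted p = 0.0331) and under quantile normalisation (0.0225), and the sign of the first turned on the spike-in scale (-0.70). The files give its probe no position.

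Cdkn2c (p18), at chr5:131013102-131013161, was not called in any comparison (F-test adjusted p = 0.199). Its levels were 0.11, 0.52 and -0.76 at 5 days, -0.34, 0.47 and -0.56 at 12 days and -0.43, -1.62 and -1.04 at 60 days. The ages overlapped, and the 60 against 5 days difference was -0.99 ± 0.46 (adjusted p = 0.126).

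**Figure D3:**
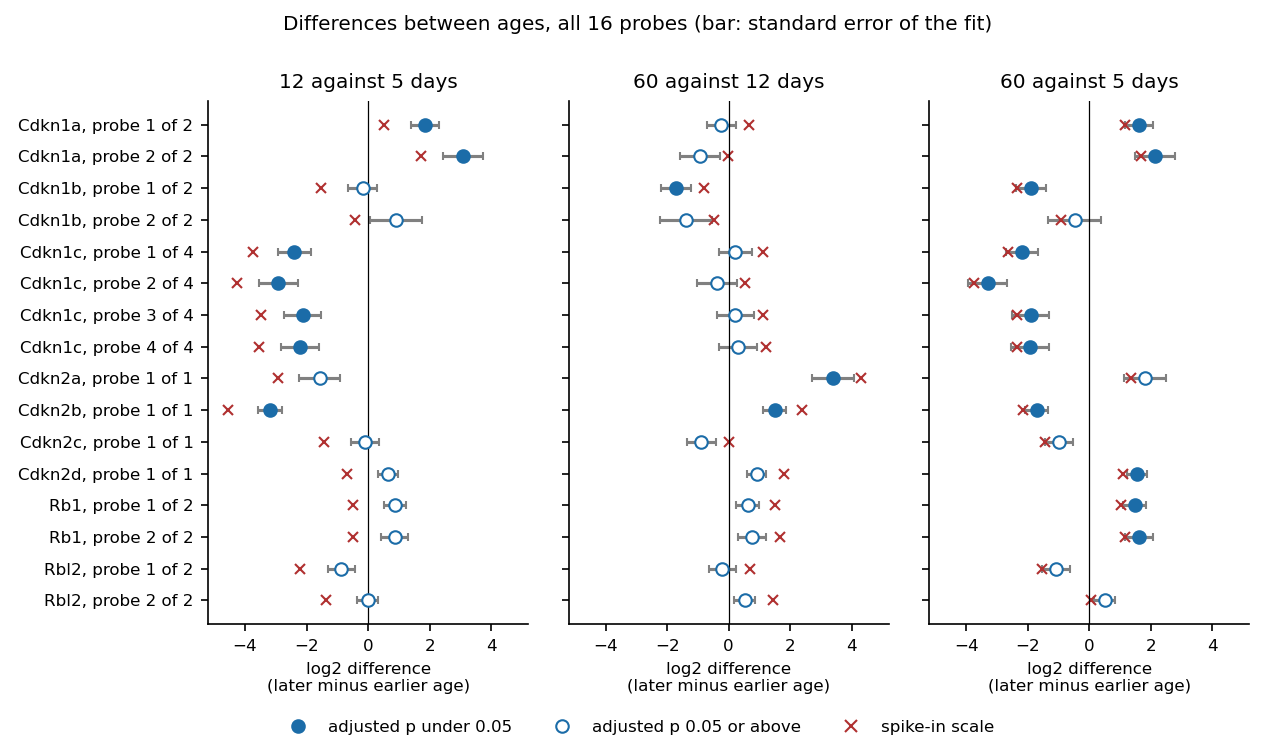
Log2 differences between ages (horizontal axis, later minus earlier) for all 16 member probes, 1 panel a comparison; circles are estimates with bars of 1 standard error, filled where the adjusted p was under 0.05, and crosses are the same differences on the spike-in scale. Filled circles lie on both sides of 0 in every panel, and the crosses sit to the left of the circles at 12 against 5 days and to the right at 60 against 12 days.

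Among the pocket proteins, Rb1 (the retinoblastoma protein itself) rose from 5 to 60 days. On its brighter probe (chr15:53829645-53829704) the levels were 0.02, -0.21 and 0.12 at 5 days, 0.52, 0.52 and 1.49 at 12 days and 1.34, 1.21 and 1.81 at 60 days. The 5-day arrays lay below the rest, and 12 and 60 days overlapped through the 12-day array of slide 3. The difference was 1.48 ± 0.36, or 2.79-fold (adjusted p = 0.0089), lost on the spike-in scale (1.04, adjusted p = 0.425) and without slide 1 or 2 (up to 0.0812). The steps from 5 to 12 days (0.87 ± 0.36, adjusted p = 0.176) and from 12 to 60 days (0.61 ± 0.36, adjusted p = 0.264) were not called, and the first turned negative on the spike-in scale (-0.48). A second Rb1 probe 10446 bases away (chr15:53840151-53840210) was well above background on 2 of the 3 arrays at 60 days and on none before. At 5 and 12 days it therefore has only a bound, and against the lowest signal well above background no rise is left to state in folds. The call that counts it among the 5 probes that rose at 60 against 5 days (adjusted p = 0.0167) was lost on the spike-in scale (adjusted p = 0.350), and also without slide 3 or any of 4 single arrays (up to 0.150).

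Rbl2 (p130, the pocket protein that prevails in resting cells and anchors the DREAM repressor complex) was not called. Its brighter probe (chr19:17045171-17045230) read 5.46, 4.96 and 4.00 at 5 days, 3.64, 4.52 and 3.64 at 12 days and 4.06, 3.84 and 3.28 at 60 days. The 60 against 5 days difference was -1.08 ± 0.45 (adjusted p = 0.0863), lower on all 3 slides and called with the slide as a block (0.0305) or without the 5-day array of slide 3 (0.0260). Against 5 days the 12-day difference was -0.87 ± 0.45 (adjusted p = 0.275), called on the spike-in scale (-2.22, adjusted p = 0.0456). The second probe, whose alignment spans 4935 bases (chr19:17054146-17059080), ran the other way, with -3.01, -2.28 and -2.37 at 5 days and -2.12, -1.99 and -2.02 at 60 days (0.51 ± 0.34, adjusted p = 0.279). The probes correlated at r = -0.58 over the 9 arrays.

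By their course over the 9 arrays, the genes most like the 3 members with the strongest age differences were picked from 8111 genes with a current symbol. Nearest to Cdkn2b were Camkmt (r = 0.98), Ccl2 (0.97) and C1r (0.97). Nearest to Cdkn1c, by its second probe, were Adprh (0.98), Tmem100 (0.97) and Cxcl1 (0.96). Nearest to Cdkn2a were Cd40 (0.96), Slc35b3 (0.95) and Nme6 (0.95). These values describe 9 arrays that share 3 ages and 3 slides.

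The inhibitors act on cyclin-CDK complexes, and of 22 partner cyclins and CDKs 1 rose and 4 fell from 12 to 60 days, and 2 rose and 7 fell from 5 to 60 days. Of all probes 11.9% rose and 12.3% fell in the first of these comparisons and 17.2% each in the second. Ccnd2 (cyclin D2, a CDK4 and CDK6 partner) fell by 4.96 ± 0.68 from 5 to 60 days (adjusted p = 0.000199), from 2.54, 3.79 and 2.64 to -0.63, -1.94 and -3.32. Ccnd3 fell by 2.87 ± 0.49 (adjusted p = 0.00092) and Cdk1, the mitotic kinase, by 2.31 ± 0.36 (adjusted p = 0.000474). Ccna1, the cyclin of meiotic germ cells, rose (adjusted p = 2.22e-05) from -2.90, -4.12 and -4.04, of which 1 array was well above background, to 1.37, 0.43 and 2.05. All 4 were called on the spike-in scale too. At 12 against 5 days 1 of the 22 rose and 0 fell in limma's test, and 1 fell with the slide as a block. Over all probes 5.87% rose and 5.95% fell there. Without slide 2 the falls from 5 to 60 days numbered 4, and with the slide as a block 7 fell from 12 to 60 days. The block also raised the rises of that step from 1 to 3. Of all probes it called 33.3%, either way, at that step and 17.6% at 12 against 5 days. On the spike-in scale, which shifts all probes alike, 4 rose and 1 fell from 12 to 60 days.

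Of 7 measured E2F and DP factors, which pocket proteins bind, 5 fell from 12 to 60 days, with a median difference of -1.31, and 3 fell from 5 to 60 days. Over all probes 12.3% fell in the first comparison and 17.2% in the second. E2f1 read 1.94, 2.08 and 2.47 at 5 days, 1.82, 2.26 and 2.63 at 12 days and 0.29, 0.20 and 0.61 at 60 days, a fall of 1.87 ± 0.34 from 12 days (adjusted p = 0.0022). E2f8, a repressor of the family, fell by 1.97 ± 0.37 over that step (adjusted p = 0.0027), Tfdp1, the DP partner, by 1.99 ± 0.42 (adjusted p = 0.0059), and E2f3 by 1.31 ± 0.41 (adjusted p = 0.0381), though at 60 days E2f3 was well above background on 1 of 3 arrays. On the spike-in scale 0 of the 7 were called from 12 to 60 days and 3 fell from 5 to 60 days. Without slide 2 the fall from 12 days was called for 1 of the 7. Over slides and arrays left out the adjusted p reached 0.0642 for E2f1, 0.0685 for E2f8, 0.0997 for Tfdp1 and 0.264 for E2f3.

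E2F target genes, the replication and mitosis genes that E2F switches on, had more falls than rises at 60 days. Of 37 measured, 11 fell from 12 to 60 days and 0 rose in limma's test, and 11 fell and 3 rose from 5 to 60 days. Over all probes 12.3% fell and 11.9% rose in the first comparison, and 17.2% went each way in the second. Rrm2, a subunit of ribonucleotide reductase, read 0.20, 0.27 and -0.12 at 5 days and -2.18, -2.87 and -1.84 at 60 days, a fall of 2.41 ± 0.35 (adjusted p = 0.00032). Tk1, thymidine kinase, fell by 2.04 ± 0.34 (adjusted p = 0.00071), Plk1, a mitotic kinase, by 1.92 ± 0.31 (adjusted p = 0.000611) and Cdt1, a licensing factor, by 1.64 ± 0.44 (adjusted p = 0.0147, up to 0.121 without slide 2 or 3 or the 5-day array 3). At 12 against 5 days 1 of the 37 rose and 0 fell, with a median of 0.26, where 5.87% of all probes rose and 5.95% fell. The fall counts were 5 without slide 1 (from 12 days) and 4 without slide 2 (from 5 days), and on the spike-in scale 0 fell from 12 days and 5 from 5 days. The 3 rises became 0 without slide 2 or 3, and with the slide as a block 2 of the 37 rose from 12 to 60 days. The block called 33.3% of all probes, either way, at that step.

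Of 18 partners in pocket protein complexes 4 rose and 3 fell from 5 to 60 days, where 17.2% of all probes rose and 17.2% fell, with a median of 0.14, and without slide 1 the counts were each 1. Lin52, a DREAM subunit, rose by 1.44 ± 0.36 (adjusted p = 0.0091), Arid4a, an Rb-binding protein, by 1.88 ± 0.35 (0.0015) and Sin3a, a corepressor, by 1.26 ± 0.37 (0.0221). Foxm1, a mitotic activator, fell by 1.74 ± 0.36 (0.0035). The calls of Lin52 and Sin3a were lost with a slide left out (adjusted p up to 0.0801 and 0.154). On the spike-in scale 0 of the 18 rose and 1 fell from 5 to 60 days. From 5 to 12 days 1 rose (Arid4a, by 1.61 ± 0.35, adjusted p = 0.0121, and 0.100 at most with a slide left out), and 2 with the slide as a block. From 12 to 60 days 2 fell, 0 without any one slide or the 12-day array 3 and 5 with the slide as a block. Over all probes 5.87% rose from 5 to 12 days and 12.3% fell from 12 to 60 days. With the block 17.6% and 33.3% of all probes were called, either way, at these steps.

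Among 16 genes that degrade or stabilise p27 and p21 proteins, 2 fell and 1 rose from 5 to 60 days, and 2 fell from 12 to 60 days. On the spike-in scale 0 were called from 5 to 60 days and 3 rose and 0 fell from 12 to 60 days. Of all probes 17.2% were called each way in the first comparison, and 11.9% higher and 12.3% lower in the second. Without slide 2 none of these falls was called, and with the slide as a block 2 rose in each comparison. Either way, the block called 43.7% of all probes from 5 to 60 days and 33.3% from 12 to 60 days. Skp2, the F-box protein that marks p27 for destruction, read -2.67, -2.58 and -3.63 at 5 days, -3.10, -1.94 and -2.65 at 12 days and -4.18, -4.63 and -4.32 at 60 days, where 2 of 3 arrays were well above background. Its fall from 12 to 60 days was 1.81 ± 0.41 (adjusted p = 0.0083), and that of its cofactor Cks1b 1.53 ± 0.39 (adjusted p = 0.0152), both lost without slide 2, and the second also without slide 3 (adjusted p up to 0.141 and 0.172 over slides and arrays left out). The mRNAs of p27 and of both its destruction factors were thus lowest at 60 days, on the brighter p27 probe. Dtl, a ligase subunit that targets p21, was called higher at 60 than at 5 days (adjusted p = 0.0015), but no 5-day array was well above background, so the rise is only at least 1.11-fold. Btrc, a ubiquitin ligase subunit, was not well above background on any 5-day or 12-day array and gave no bound above 1. Its 60 against 5 days test gave an adjusted p = 0.0572, and 0.0354 with the slide as a block. At 12 days 1 of the 16 was called higher than at 5 days, where 5.87% of all probes rose. It was Dtl (adjusted p = 0.0183). Against the lowest signal well above background no rise of Dtl to 12 days is left to state in folds.

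Of 22 genes of the p53 pathway, other than Cdkn1a, 5 rose from 5 to 12 days and 0 fell in limma's test, where 5.87% of all probes rose. Plk2, a p53 target kinase, rose by 2.62 ± 0.33 (adjusted p = 0.000548) from 0.57, 0.77 and 0.16 to 3.31, 3.29 and 2.75 and was back at 0.15, 0.40 and 0.45 at 60 days. Cdkn1a was not called between 12 and 60 days (-0.23 ± 0.46, adjusted p = 0.768). From 12 to 60 days 6 of the 22 fell and 1 rose, where 12.3% of all probes fell and 11.9% rose. Phlda3 fell by 3.07 ± 0.33 (adjusted p = 8.81e-05), Btg2 by 2.00 ± 0.38 (adjusted p = 0.0030, and 0.0608 without slide 2), and Sesn1 rose by 1.95 ± 0.36 (adjusted p = 0.0023). From 5 to 60 days 2 rose and 4 fell, where 17.2% of all probes were called each way. The 5 rises became 1 without slide 1 or 2 or any of 4 single arrays, the 6 falls became 2 without slide 2, and on the spike-in scale 0 rose from 5 to 12 days and 0 fell from 12 to 60 days. With the slide as a block 4 rose from 5 to 60 days and 2 from 12 to 60 days, where it called 43.7% and 33.3% of all probes, either way.

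Of 26 polycomb proteins and other regulators of the INK4 locus, 2 rose and 8 fell from 5 to 60 days. Over all probes 17.2% were called each way. The strongest age differences were among transcription factors of the list. Id3 and Id1, inhibitors of helix-loop-helix factors, fell by 4.75 ± 0.48 and 3.68 ± 0.38 (adjusted p = 2.52e-05 and 2.55e-05), Ets1, an activator of p16, by 2.62 ± 0.36 (0.000199) and Myc by 1.38 ± 0.37 (0.0135, up to 0.0994 without a slide). The first 3 were called on the spike-in scale and Myc was not. From 5 to 12 days 1 rose and 1 fell (Id3, by 2.63 ± 0.48, adjusted p = 0.0051, and 0.0835 without slide 2), and from 12 to 60 days 1 rose and 5 fell. Over all probes 5.87% rose and 5.95% fell at the first of these steps, and 11.9% and 12.3% at the second. The 8 falls became 3 without slide 1 and 4 on the spike-in scale, and with the slide as a block 2 rose and 3 fell from 5 to 12 days. The block called 17.6% of all probes, either way, at that step.

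Cdkn1c sits in an imprinted cluster, and of 9 measured neighbours 3 fell from 5 to 60 days, on the spike-in scale and with each slide or array left out as well. From 5 to 12 days 1 fell, and from 12 to 60 days 1 rose and 1 fell, with 2 falls in each with the slide as a block. Over all probes 17.2% fell from 5 to 60 days, 5.95% from 5 to 12 days and 12.3% from 12 to 60 days. At that last step 11.9% rose. With the block 17.6% of all probes were called, either way, from 5 to 12 days and 33.3% from 12 to 60 days. Igf2, the growth factor of the cluster, read 4.98, 4.55 and 4.62 at 5 days, 0.87, 1.54 and 1.83 at 12 days and 1.46, 1.03 and 1.42 at 60 days. It fell by 3.30 ± 0.35 from 5 to 12 days (adjusted p = 0.000228) and differed by -0.11 ± 0.35 from 12 to 60 days (adjusted p = 0.863), the step at which Cdkn1c fell and the step at which it was not called. Slc22a18, a transporter, fell by 2.31 ± 0.37 from 5 to 60 days (adjusted p = 0.000557). Phlda2, a growth-restraining gene, fell at the later step to below background on all 60-day arrays, at least 4.27-fold lower than at 12 days (adjusted p = 0.000327), and Cd81 rose there by 1.01 ± 0.31 (adjusted p = 0.0353), which missed the threshold with any slide left out (up to 0.273).

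**Figure D4:**
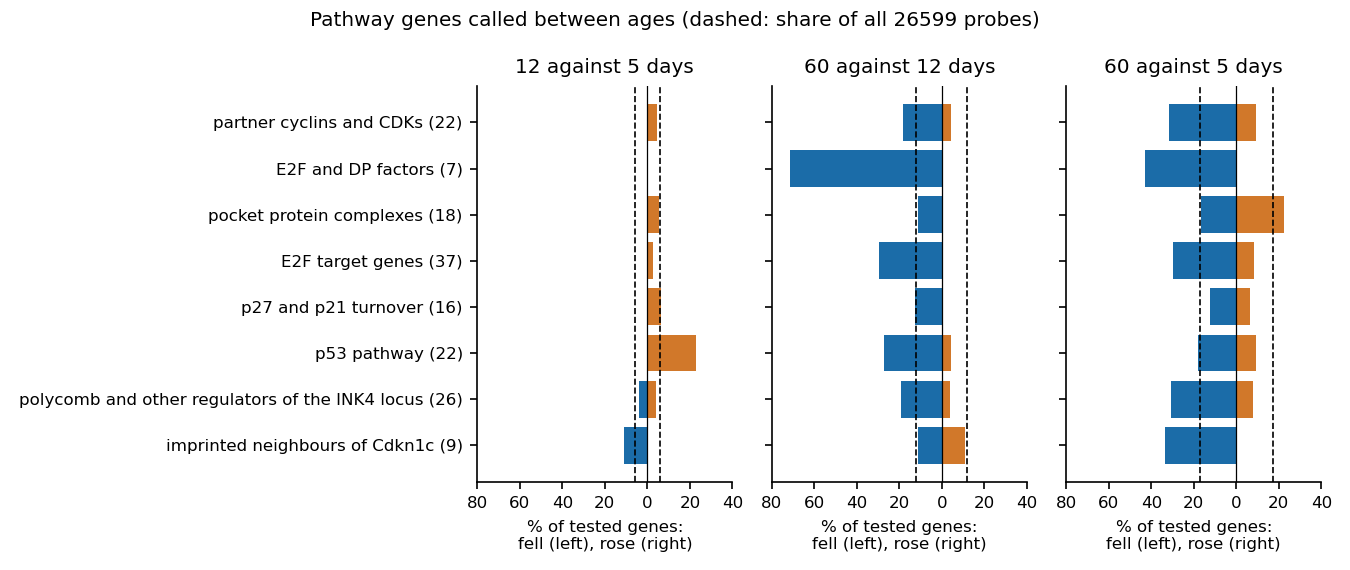
Percent of the tested genes of 8 pathway lists (rows, number tested in brackets) that fell (left, blue) or rose (right, orange) in each comparison of ages; dashed lines give the percent of all 26599 probes that fell or rose. At 60 against 12 days 5 of 7 E2F and DP factors and 11 of 37 E2F targets fell and none rose; on the spike-in scale none of either list fell at that step.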

How the data were processed

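Total RNA was labelled with Cy3 and read on Agilent 4x44k arrays, per the labels. The processed signal is an intensity that the authors' Feature Extraction runs (9.5.3.1 for replicate 1, 10.5.1.1 for the others, per the file headers) gave after background subtraction. The authors' deposited series table holds log2 values equal to these signals minus 1 constant per array, within 0.01 for 99.64% to 99.72% of probes.

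Control spots were dropped, spots of a probe averaged, and 254 probes with outlier flags left out. The log2 signal minus that of the array's 75th percentile was fitted with a mean per age on all 9 arrays in limma 3.58.1 (R 4.3.3), with Benjamini-Hochberg adjustment over the 26599 probes well above background on 2 or more arrays of an age. A pathway or marker gene was read by its brightest probe. The number of arrays limits the precision. The script was tested on simulated data.

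Members and lists were chosen with earlier results of these data known. Named were every member probe, the 4 genes of each pathway list with the smallest F-test p, the 3 brightest of each marker list and the 3 genes most like each of 3 members. A replicate number marks a slide. Same-numbered arrays deviated together (correlations 0.166 to 0.612, against at most 0.0954 otherwise), so the numbers pair the arrays. Probe positions are on rn4. Exons and untranslated regions are not stated, because no annotation of that build was used.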

Additional observations from a re-analysis of the deposited data

How the results depend on the processing

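In the main fit 7, 3 and 11 of the 16 member probes were called at 12 against 5, 60 against 12 and 60 against 5 days, and 12 by the F-test. Of all probes 11.8%, 24.2%, 34.4% and 35.4% were called. With normexp background correction on slides 1 and 3, the slides with mean spot signals, limma called 0, 0, 0 and 0, with 4, 1, 5 and 3 at an unadjusted p under 0.05; of all 26599 probes it called 0, 2, 195 and 75. With 1 probe a gene 3, 6 and 7 of 9 genes were called at 12 against 5 days, 60 against 5 days and by the F-test, there being fewer probes. That fit called 12.5%, 35.5% and 36.8% of all its 22567 probes there. The spike-in scale gave 6 at 60 against 5 days and 7 by the F-test, and the replicate block 5 at 60 against 12 days; the cause was not tested. Leaving out a slide or an array gave 1 to 7, 1 to 3, 5 to 12 and 4 to 11 calls. The fewest at 12 against 5 days came without slide 2 (1 call, 3.47% of all probes). At 60 against 5 days they came without slide 1 or 2 (5 calls, 26.3% and 20.7% of all probes). By the F-test they came without slide 2 (4 calls, 19.4% of all probes). Each of these fits had fewer arrays. Over the single member probes 907 values kept their side of the threshold, 110 lost a call, 12 gained one and 0 turned sign after a call. The 907 include uncalled differences that changed sign, such as the first steps of Cdkn2d and Rb1 on the spike-in scale. The replicate block changed no other member call than those named. Probes dimmer than background set the limit for Rb1's second probe and Cdkn1a's at 5 days.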
